A study of Mus musculus with 2 samples.

Results

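Cells with transcripts of *Ccl24*, *Mmp19* or *Sdc1* and without those of inflammatory monocytes were examined in colorectal polyps, where such cells carry the label of a transitional state between monocyte and macrophage. They were chosen by a rule on measured values. A barcode was kept when its detected genes numbered 200 to 4000 and no more than 10% of its UMIs were mitochondrial, where a UMI (unique molecular identifier) marks 1 captured transcript copy. Of the kept barcodes, a cell was selected when *Ccl24*, *Mmp19* and *Sdc1* together reached 5 UMIs per 10000 UMIs of the barcode, here called its score. It also had to have 0 UMIs of *Ly6c2*, *Chil3* and *Plac8*, under 80 per 10000 of *S100a8* and *S100a9*, under 20 per 10000 of *C1qa*, *C1qb* and *C1qc*, and 0 UMIs of *Cd3d*, *Cd3e*, *Xcr1*, *Clec9a* and *Flt3*. The rule found 343 of 5849 kept barcodes, and of 6547 barcodes in all.

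The polyps came from C57BL6/J mice in which azoxymethane (AOM), a colon carcinogen, had been followed by 1% dextran sodium sulfate (DSS) in 3 cycles. They were collected 16 weeks after AOM, at a labelled age of 26 weeks, and CD11b+ and CD11c+ myeloid cells were sorted. One library pooled 5 WT mice, and the other pooled 4 *Clec7a*-/- mice, which lack the β-glucan receptor Dectin-1. With 1 pooled library per genotype there was no replicate, so no test was run, sizes were compared, and every interval is an exact 95% interval for counting error only (Clopper-Pearson for shares, Poisson for levels, conditional for ratios). Differences between mice and between library preparations are not in these intervals. The WT library held 15869215 UMIs in 3467 barcodes, of which 3147 were kept with a median of 3383 UMIs. The *Clec7a*-/- library held 11808230 UMIs in 3080 barcodes, of which 2702 were kept with a median of 2847.5 UMIs. The libraries shared 17 barcode sequences, and 0 of the selected cells carried a shared one. *Clec7a* itself was not analysed here, so the genotype labels were not checked by the targeted gene.

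Blood monocytes that enter inflamed or tumor-bearing gut lose *Ly6c2* and gain macrophage genes such as the C1q chains over time, and cells on the way hold part of each program. CCL24 (eotaxin-2) attracts eosinophils through CCR3, MMP19 is a matrix metalloprotease, and SDC1 (syndecan-1) is a heparan sulfate proteoglycan that plasma cells and epithelial cells also carry. VEGFA, a further marker given for these cells, is the main growth factor for blood vessels.

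In GRCm38, *Ccl24* lies on chromosome 5 at 135569937-135573049, *Mmp19* on chromosome 10 at 128790910-128800824, *Sdc1* on chromosome 12 at 8771323-8793715 and *Vegfa* on chromosome 17 at 46016993-46032369. *Mmp19* had a UMI in 151 of the 202 WT cells and 93 of the 141 *Clec7a*-/- cells, which is 74.8% and 66.0%. *Sdc1* had one in 126 and 83 cells (62.4% and 58.9%). *Ccl24* had one in 52 and 57 cells (25.7% and 40.4%). The 3 genes were seldom all detected in 1 cell. All 3 had a UMI in 24 WT and 24 *Clec7a*-/- cells, 2 of them in 79 and 44, and 1 alone in 99 and 73. *Mmp19* was alone in 55 and 33 cells, *Sdc1* in 36 and 24, and *Ccl24* in 8 and 16. These values chose the cells and are given as a description.

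The selection rested on few UMIs in many cells. Scores had a median of 16.3 (WT) and 14.3 (*Clec7a*-/-) and reached 152 and 170. The lowest scores inside the threshold were 5.05 and 5.01, and the highest outside it, among barcodes that met all other conditions, were 4.995 and 4.93. In 30 WT and 23 *Clec7a*-/- cells the score came from 1 UMI of the 3 genes. A single UMI reaches the score in a barcode of at most 2000 UMIs. The selected cells had medians of 2939.5 and 2603 UMIs and of 1314.5 and 1296 detected genes, with 3.21% and 3.49% mitochondrial UMIs, and 21 and 13 of them held under 1000 UMIs. Thinning to 1000 UMIs left out barcodes below that depth, here and in later comparisons, so 181 WT and 128 *Clec7a*-/- cells remained. Of these, 20.4% and 32.8% still showed *Ccl24*, 51.4% and 44.5% *Mmp19*, and 37.6% and 31.3% *Sdc1*.

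**Figure D1:**
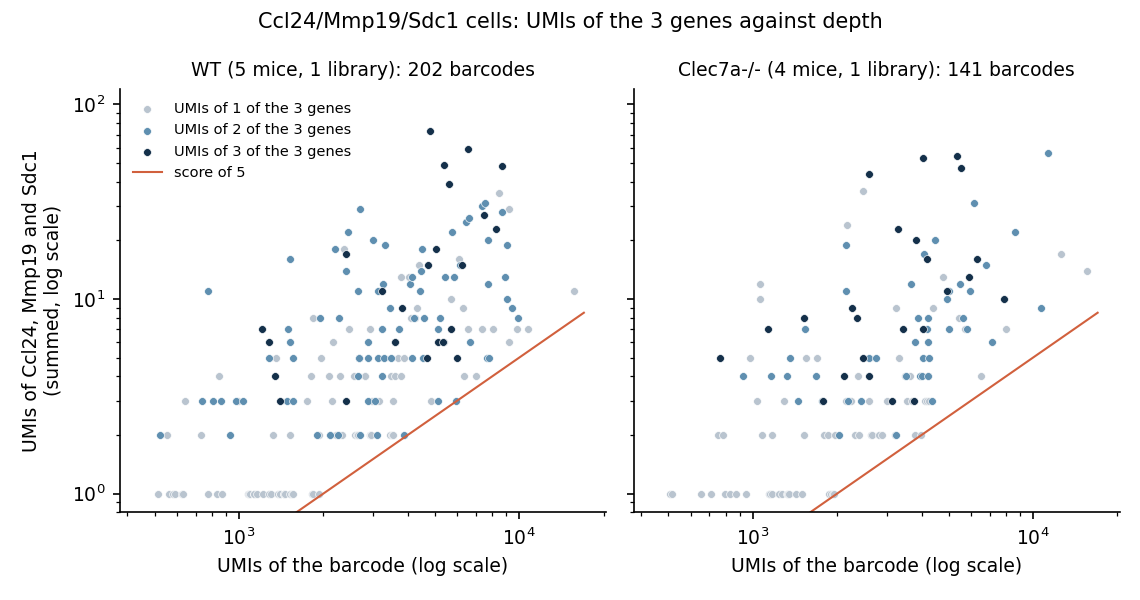
Each point is a selected cell, with the UMIs of its barcode on the x axis and the summed UMIs of Ccl24, Mmp19 and Sdc1 on the y axis, both on log scales, for WT (202 cells) and Clec7a-/- (141 cells). Shade gives how many of the 3 genes had a UMI, the line is a score of 5, and the bottom row holds the 30 and 23 cells with 1 UMI of the 3 genes.

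Free RNA was gauged in T cells, which should lack these transcripts. T cells were taken as barcodes with at least 2 UMIs of *Cd3d* and *Cd3e*, 36 in WT and 55 in *Clec7a*-/-, with medians of 2535 and 2185 UMIs. Any of the 3 genes had a UMI in 5.56% (0.68 to 18.7) and 5.45% (1.14 to 15.1) of them, and *Ccl24* in 0 of each, which by the exact interval allows up to 9.74% and 6.49%. *Vegfa*, which the rule did not use, had a UMI in 5.56% and 7.27% of the T cells. It had one in 61.4% (54.3 to 68.1) of the WT selected cells and in 56.0% (47.4 to 64.4) of the *Clec7a*-/- selected cells. Thinned to 1000 UMIs, the share with *Vegfa* was 40.9% and 32.8% in the selected cells and 3.13% and 5.88% in T cells.

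The label was checked against genes outside the rule. *Lyz2* (lysozyme) had a UMI in 175 WT and 125 *Clec7a*-/- cells and *Csf1r*, the receptor for the macrophage growth factor CSF1, in 153 and 119. These are 86.6% and 88.7% of the cells for *Lyz2* and 75.7% and 84.4% for *Csf1r*, whereas the T cells, the gauge of free RNA above, had *Lyz2* in 30.6% and 21.8% and *Csf1r* in 5.56% and 9.09%. Thinned to 1000 UMIs, *Csf1r* was detected in 53.0% and 66.4% of the selected cells and in 0% and 3.92% of the T cells. In all other kept barcodes *Lyz2* had a UMI in 81.0% and 68.9%, and *Csf1r* in 63.6% and 45.4%. Both genes were thus common among the sorted cells and do not set a transitional state apart. The monocyte genes outside the rule, among them *Ccr2*, *Vcan*, *F13a1* and *Itga4*, were sparse, and none of those named reached 100 UMIs. The monocyte list, with *Ly6c2*, *Chil3* and *Plac8* that the rule held at 0, summed to 214 and 209 CPM (UMIs per 1000000 UMIs of the same cells). The macrophage list, with the C1q genes that the rule limited, summed to 2774 and 3242 CPM, led by *Cd63*. At least 2 of its genes had UMIs in 143 WT and 103 *Clec7a*-/- cells. In the other kept barcodes the monocyte list summed to 819 and 888 CPM and the macrophage list to 9026 and 8302 CPM. The lists hold different genes, and the rule held down part of each, so their sums do not rank the 2 programs. Of that list *Cd163* and *Folr2* were at 0 in both libraries and *Cx3cr1* had 2 UMIs, both in WT. Since part of the cells also held markers of other cell types, the label did not cover all of them, and they are called *Ccl24*/*Mmp19*/*Sdc1* cells here.

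Markers of other cell types were present in part of the cells. Epithelial markers summed to 568 CPM in WT and 823 CPM in *Clec7a*-/- cells, led by *Krt8*, with *Pigr* at 0 in *Clec7a*-/- cells. At least 2 of the 8 epithelial markers had UMIs in 12 WT and 5 *Clec7a*-/- cells, and these few cells held 96.6% and 98.1% of the list's UMIs. In these cells *Epcam* was at 1879 and 2553 CPM, *Sdc1* at 675 and 593 CPM and *Csf1r* at 164 and 570 CPM. Mature dendritic cell (DC) markers summed to 1009 and 1596 CPM, none of the 8 was at 0, and the most abundant was *Ccr7*, the receptor that guides DCs to lymph nodes. At least 2 of them had UMIs in 32 WT and 31 *Clec7a*-/- cells. *Fscn1*, an actin-bundling protein of mature DCs, had a UMI in 4 and 11 cells. B and plasma cell markers summed to 449 and 307 CPM, led by *Xbp1*, with *Mzb1* and *Derl3* at 0 in both libraries and *Jchain* at 0 in *Clec7a*-/- cells. Mast cell markers summed to 40.0 and 23.9 CPM, with *Cpa3*, *Tpsb2*, *Fcer1a* and *Ms4a2* at 0. T and NK cell markers summed to 193 and 187 CPM, most of it *Il7r*. Eosinophil markers summed to 11.0 and 0 CPM, with *Prg2*, *Epx* and *Il5ra* at 0. Stromal and endothelial markers summed to 33.1 and 41.4 CPM, most of it *Pecam1*. Neutrophil markers, of which the rule limited *S100a8* and *S100a9*, summed to 1518 and 1210 CPM. At least 2 of the 12 had UMIs in 87 WT and 49 *Clec7a*-/- cells, more than for the epithelial or mature DC markers. Values without such cells are given beside some of the comparisons they moved.

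The first comparison asked what share of the polyp myeloid cells these cells made up in each genotype. They were 6.42% (5.59 to 7.33) of the kept WT barcodes and 5.22% (4.41 to 6.13) of the kept *Clec7a*-/- barcodes, 202 and 141 cells. The log2 ratio of *Clec7a*-/- over WT was −0.30 (−0.62 to 0.019), an interval that reaches 0. It lay off 0 with no mitochondrial limit (−0.69 to −0.072), after removal of the barcodes with the highest doublet scores (−0.69 to −0.029), without cells holding 2 mature DC markers (−0.77 to −0.054) and with no C1q limit (−0.76 to −0.34). A larger difference stood before the excluding conditions. The 3 genes reached a score of 5 in 947 WT barcodes (30.1%) and 544 *Clec7a*-/- barcodes (20.1%), a log2 ratio of −0.58 (−0.73 to −0.43). Of these, *Ly6c2*, *Chil3* or *Plac8* removed 387 and 195, the C1q limit 386 and 179, the *S100a8* and *S100a9* limit 94 and 21, and the T cell and DC genes 48 and 59, with some barcodes removed by more than 1 condition. The selected cells were 21.3% of the barcodes over the score in WT and 25.9% in *Clec7a*-/-. At matched depth the log2 ratio was −0.20 (−0.49 to 0.082) after thinning barcodes to 1000 UMIs and 0.13 (−0.18 to 0.44) after thinning to 2000, where the direction turned. Barcodes below each depth were left out there, and the rule was applied to the thinned counts. It was −0.079 (−0.48 to 0.31) among barcodes of at least 2000 UMIs, and all these intervals overlap the first. The kept barcodes were shallower in *Clec7a*-/-, and the part of depth in the share was not tested otherwise.

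**Figure D2:**
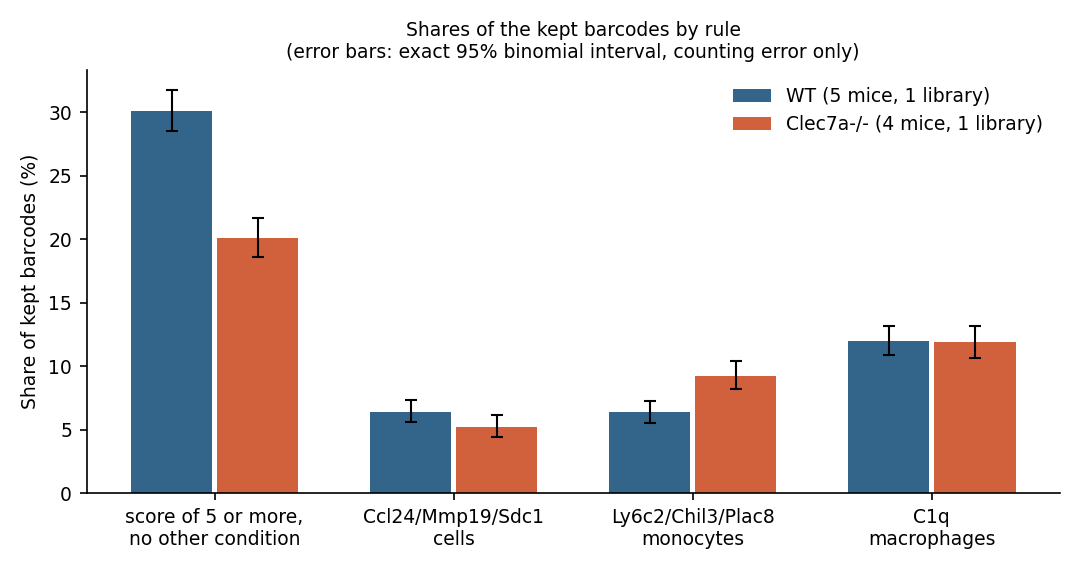
Bars give the share of kept barcodes (%) in WT (3147) and Clec7a-/- (2702) for barcodes with a score of 5 or more, for the selected cells, and for monocytes and C1q macrophages drawn by similar rules, with exact 95% binomial intervals. The selected cells made up 6.42% and 5.22%, with overlapping intervals, and the score alone was met by 30.1% and 20.1%.

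For the place of these cells among their neighbours, 2 classes were drawn by similar rules. Monocytes had a score of at least 5 for *Ly6c2*, *Chil3* and *Plac8*, 0 UMIs of *Ccl24*, *Mmp19* and *Sdc1*, and the same limits otherwise. There were 200 in WT and 250 in *Clec7a*-/-, which is 6.36% and 9.25% of kept barcodes, a log2 ratio of 0.54 (0.27 to 0.82). C1q macrophages had a C1q score of at least 20, a score under 5 for the 3 genes and 0 UMIs of *Ly6c2*, *Chil3* and *Plac8*, and there were 377 and 321, 12.0% and 11.9%. Their medians were 2528.5 and 1936 UMIs in monocytes and 6641 and 4995 UMIs in macrophages. A gene was counted as higher or lower when it was past 2-fold in the same direction in both libraries and had at least 100 UMIs in all. The classes differ by construction in the genes of the rules, which were set aside, and differences in genes that go with them are descriptions.

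Of 3474 genes compared with monocytes, 68 (1.96%) were higher and 74 (2.13%) lower in the *Ccl24*/*Mmp19*/*Sdc1* cells. Of 5670 compared with C1q macrophages, 238 (4.2%) were higher and 341 (6.01%) lower. The median log2 ratio over all genes was 0.012 in WT and 0.016 in *Clec7a*-/- against monocytes, and 0.019 and 0.10 against macrophages. TMM scaling moved all log2 ratios over macrophages by −0.098 in WT and −0.21 in *Clec7a*-/-, and the counts were then 175 higher and 423 lower, and with a pseudocount of 5 UMIs in place of 0.5 they were 278 and 197, so the balance of higher and lower genes there rests on these choices.

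Macrophage genes outside the rule were mostly below their level in C1q macrophages. Of 11 such genes with enough UMIs, 10 were lower than in C1q macrophages, with list medians of −2.43 in WT and −2.87 in *Clec7a*-/- on the log2 scale. *Ms4a7*, a membrane protein of mature macrophages, was at 56.5 and 39.2 CPM in the cells, at 22.7 and 1.69 CPM in monocytes and at 618 and 711 CPM in macrophages. *Apoe*, which carries lipid out of macrophages, was at 452 and 967 CPM in the cells, at 182 and 251 CPM in monocytes and at 4592 and 7835 CPM in macrophages. For both genes the cells lay between the classes in each library. For *Ms4a7* the cells and monocytes together held under 100 UMIs, below the minimum for a comparison. *Selenop*, a selenium transport protein of resident macrophages, was at 53.8 and 34.8 CPM against 1107 and 1222 CPM in macrophages, and at 26.2 and 28.7 CPM in monocytes. *Lyz2* and *Csf1r* also lay between, with *Csf1r* at 1064 and 1295 CPM in the cells, 654 and 648 CPM in monocytes and 1711 and 2035 CPM in macrophages. The monocyte class also held barcodes with markers of other cell types, among them 49 and 66 with at least 2 mature DC markers. *Lyz2* had a UMI in 64.0% and 60.4% of that class and *Csf1r* in 56% and 47.6%. Its levels are therefore not those of monocytes alone, and lying between describes these classes only. Of 4 further monocyte genes compared with monocytes, 2 were lower, namely *Ifitm6*, an interferon-induced membrane protein, by a log2 ratio of −3.42 (−4.88 to −2.38) in WT and −2.41 (−3.46 to −1.58) in *Clec7a*-/- cells, and the integrin subunit gene *Itga4* by −2.04 and −1.84. *Cx3cr1*, the fractalkine receptor of gut macrophages, was at 2.76 and 0 CPM, below both classes in each library.

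**Figure D3:**
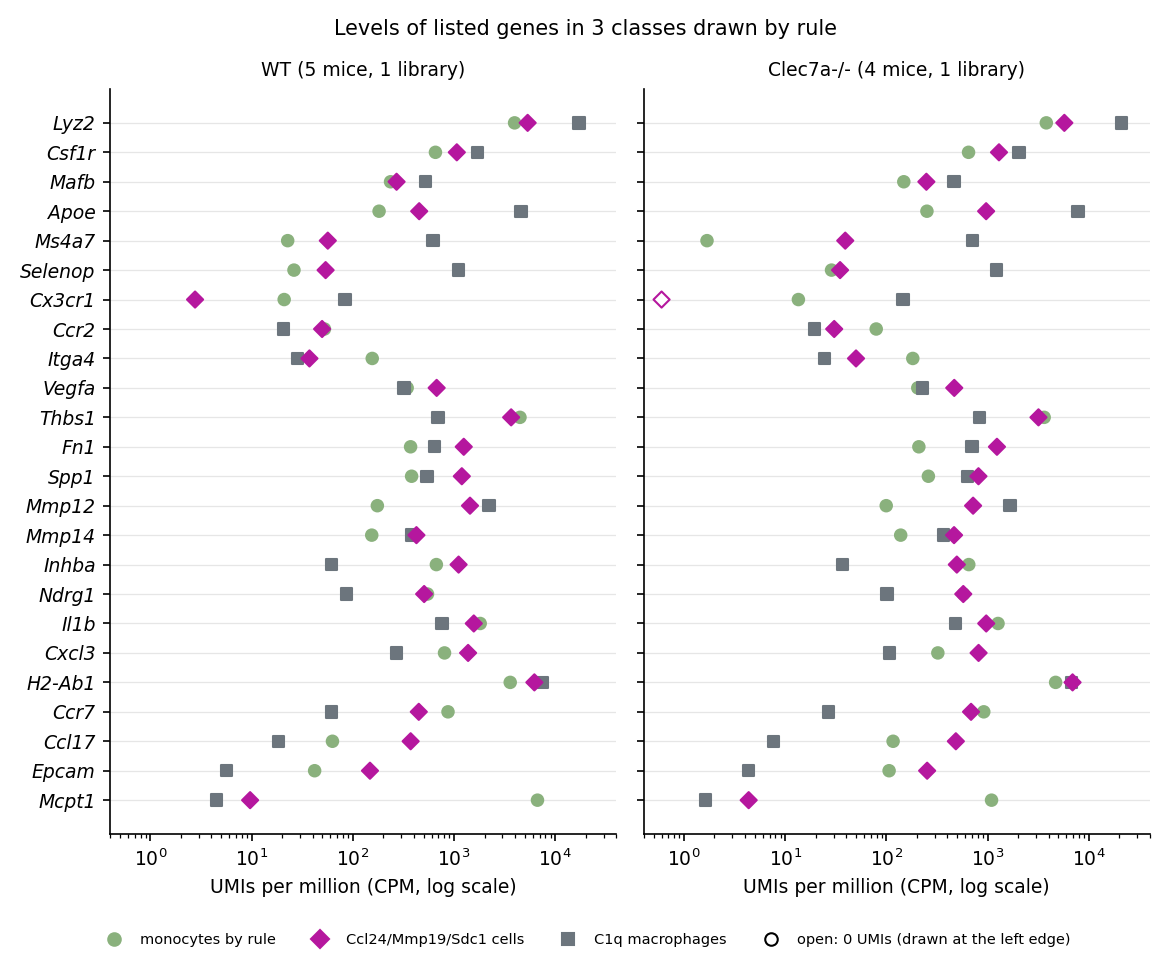
Points give the level in CPM (log scale) of listed genes in monocytes (circles), the selected cells (diamonds) and C1q macrophages (squares), for the WT and the Clec7a-/- library. The selected cells lay between the other classes for Lyz2, Csf1r, Apoe and Ms4a7, and above both for Vegfa, Fn1, Spp1, Cxcl3, Ccl17 and Epcam. Ms4a7 held under 100 UMIs in the selected cells and monocytes together. The monocyte class alone held the mast cell gene Mcpt1 at a high level. That class held barcodes with markers of other cell types, so its levels are not those of monocytes alone.

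*Vegfa* was higher in these cells than in both classes. It was at 673 CPM in WT and 468 CPM in *Clec7a*-/- cells, at 344 and 204 CPM in monocytes and at 319 and 228 CPM in macrophages. The log2 ratio over macrophages was 1.08 (0.91 to 1.24) in WT and 1.04 (0.80 to 1.28) in *Clec7a*-/-. Over monocytes it was 0.97 (0.73 to 1.21) and 1.19 (0.87 to 1.53), just short of 2-fold in WT. In the remaining angiogenesis list, *Thbs1*, which encodes the vessel inhibitor thrombospondin-1, was at 3663 and 3181 CPM in the cells against 696 and 829 CPM in macrophages, and its level in monocytes was higher still, at 4478 and 3621 CPM. *Anxa2* was past 2-fold over macrophages in both libraries and *Pgf* past 2-fold below. The receptor genes *Kdr* and *Nrp1* had under 10 UMIs in the cells, and *Vegfc* had 0.

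Few genes of glycolysis and of the hypoxia response were past 2-fold against either neighbour, though their medians over monocytes exceeded those of all genes. Of 21 compared with monocytes, 1 was higher, the glycolysis gene *Pgam1*, and 0 were lower, with medians of 0.45 and 0.50 against 0.012 and 0.016 over all genes. Of 23 compared with macrophages, 2 were higher, *Pfkp* and *Ndrg1*. *Ndrg1*, which is induced in low oxygen, was at 506 and 575 CPM in the cells, 546 and 577 CPM in monocytes and 86.9 and 101 CPM in macrophages.

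Several matrix genes were higher than in monocytes. Of 9 matrix metalloprotease and inhibitor genes, 4 were higher and 2 (*Timp1* and *Mmp25*) lower, with list medians of 0.21 and 1.09. *Mmp12*, the macrophage elastase, was at 1437 and 718 CPM against 175 and 99.5 CPM in monocytes, a log2 ratio of 3.03 (2.74 to 3.35) and 2.84 (2.45 to 3.28). *Mmp14*, a membrane-bound metalloprotease, was higher by 1.46 and 1.75. *Mmp9* (1.02 and 3.90) and *Mmp13* (1.71 and 1.45) were the others, and the *Mmp13* interval in *Clec7a*-/- reached 0. The matrix proteins *Fn1* (fibronectin) and *Spp1* (osteopontin) were higher than in monocytes by 1.74 and 2.56 and by 1.65 and 1.64. *Fn1* was at 1246 and 1237 CPM in the cells and at 637 and 703 CPM in macrophages. The coagulation factor gene *F10* was at 368 and 333 CPM in the cells and at 21.4 and 40.2 CPM in macrophages, with monocytes at 450 and 326 CPM. Of the proteoglycan list, *Sdc4* was at 227 and 233 CPM and *Sdc2* at 0.

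*Cd274*, which encodes the T cell inhibitor PD-L1, was at 283 and 250 CPM, higher than in macrophages by 1.25 and 1.22 and lower than in monocytes. *Ccl17*, an IL-4 responsive chemokine for CCR4 on T cells, was past 2-fold over both classes, at 372 and 485 CPM against 62.8 and 116 CPM in monocytes and 18.4 and 7.61 CPM in macrophages. *Ccl17* UMIs came from 33 WT and 24 *Clec7a*-/- cells, and cells with at least 2 mature DC markers, a list that includes *Ccl17*, held 142 of 270 and 191 of 223 of them. In cells with under 2 mature DC markers and under 2 epithelial markers it was at 239 and 105 CPM. The monocyte class was not trimmed in the same way and held 49 and 66 barcodes with at least 2 mature DC markers. Of 17 chemokine genes compared with macrophages, 4 were higher and 4 lower, and *Cxcl3*, a neutrophil chemokine, was higher by 2.35 and 2.92. *Inhba*, which encodes the activin A subunit, was higher than in macrophages by 4.16 (3.92 to 4.42) in WT and 3.74 (3.35 to 4.16) in *Clec7a*-/- cells. Against monocytes it was higher in WT by 0.73 and lower in *Clec7a*-/- by −0.39.

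Of 14 lipid-handling genes, 3 were higher than in monocytes and 0 lower, namely *Lpl*, *Spp1* and *Ctsl*, with list medians of 0.57 and 0.51. *Lpl* (lipoprotein lipase) had 99 UMIs, in 18 WT and 16 *Clec7a*-/- cells, against 4 UMIs in monocytes. Of 9 MHC class II and costimulatory genes compared with macrophages, 1 was higher (*Cd80*) and 2 were lower (*H2-DMa* and *H2-DMb1*, which help to load peptides). *H2-Ab1* was at 6215 and 6907 CPM against 7506 and 6785 CPM there and 3587 and 4699 CPM in monocytes. Prostaglandin and leukotriene genes had 0 of 6 members higher and 2 lower than in monocytes, *Alox5ap* and *Ptges*. *Ptgs2* (COX-2) was at 525 and 274 CPM against 405 and 189 CPM in monocytes. Proliferation genes had 4 of 6 members lower than in macrophages. Interferon-induced genes had 2 of 4 members lower than in monocytes, *Cxcl10* and *Gbp2*.

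Several of the largest differences were carried by few barcodes or by other cell types in a class. Of the 10 genes with the largest ratios over macrophages, *Cldn4*, *Spint2*, *Krt8*, *Epcam* and *Krt18* are epithelial, and *Wfdc18* had 210 of its 256 WT UMIs and 196 of its 222 *Clec7a*-/- UMIs in 1 barcode of each library. *Plat* had 56 of 69 and 34 of 38 UMIs in 1 barcode each, and *Pglyrp1* had 42 of 87 and 12 of 32. The 10 genes furthest below macrophages included *Mmp2*, *Olfml3*, *Fcrls*, *Cadm1* and *Mfge8*, each with under 20 UMIs in the cells. Over monocytes the list was led by *Ppbp*, a platelet chemokine with 93 of 97 WT UMIs in 1 barcode, and by *Lpl*, *Wfdc18*, *Spock2*, *Cldn4*, *Mmp12* and *Dcstamp*. *Dcstamp*, a membrane protein for the fusion of macrophages and osteoclasts, had UMIs in 37 WT and 36 *Clec7a*-/- cells, at 124 and 137 CPM against 19.2 and 13.5 CPM in monocytes. The genes furthest below monocytes were mostly those of mast cells, beside *Ly6a* and *Lypd8*, and *Mcpt1* was at 6670 and 1093 CPM in the monocyte class. That class held B cell transcripts too, with *Cd79a* at 52.4 and 154 CPM. Without barcodes that had at least 2 distinct markers of epithelial, mast, B and plasma or T and NK cells in either class, 47 genes were higher and 40 lower than in monocytes.

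The cells differed among themselves by which of the 3 genes they held. Cells with a UMI of *Mmp19* had more *Ccr7*, *H2-Ab1* and *Lyz2* than those without. *Ccr7* was at 536 against 79.1 CPM in WT, a log2 ratio of 2.76 (1.90 to 3.78), and at 860 against 192 CPM in *Clec7a*-/-, 2.17 (1.55 to 2.85). *H2-Ab1*, an MHC class II chain, was at 7162 against 2222 CPM and at 8001 against 3816 CPM. *Lyz2* was at 5985 against 2581 CPM and at 6648 against 3133 CPM. The direction was the same in both libraries. *Mmp12* was higher with *Mmp19* as well, by 1.57 (1.24 to 1.93) and 0.61 (0.21 to 1.03).

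Cells with a UMI of *Ccl24* were higher in *Clec4n* and lower in *Ccr7* and *H2-Ab1*. *Clec4n*, which encodes the fungal lectin receptor Dectin-2 and was chosen after its values were seen, was higher by 0.61 (0.43 to 0.78) and 0.76 (0.54 to 0.98). *Ccr7* was lower by −1.88 (−2.47 to −1.33) and −0.90 (−1.28 to −0.53). Epithelial transcripts went with *Sdc1*. *Epcam* was at 212 CPM with and 24.1 CPM without an *Sdc1* UMI in WT, and at 383 and 23.9 CPM in *Clec7a*-/-. With an *Mmp19* UMI it was at 13.6 and 8.84 CPM, and without at 712 and 942 CPM. *Vegfa* was higher with *Mmp19* in WT by 1.33 (0.87 to 1.83), whereas in *Clec7a*-/- the interval reached 0 at 0.15 (−0.31 to 0.63). These ratios are a description, since the split used genes of the rule and a cell without one of them had to hold another to be selected. Barcodes of 1 library are not replicates, and depth differed too, with medians of 3294 UMIs with and 1834 without *Mmp19* in WT, and 3559 and 1881 in *Clec7a*-/-.

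**Figure D4:**
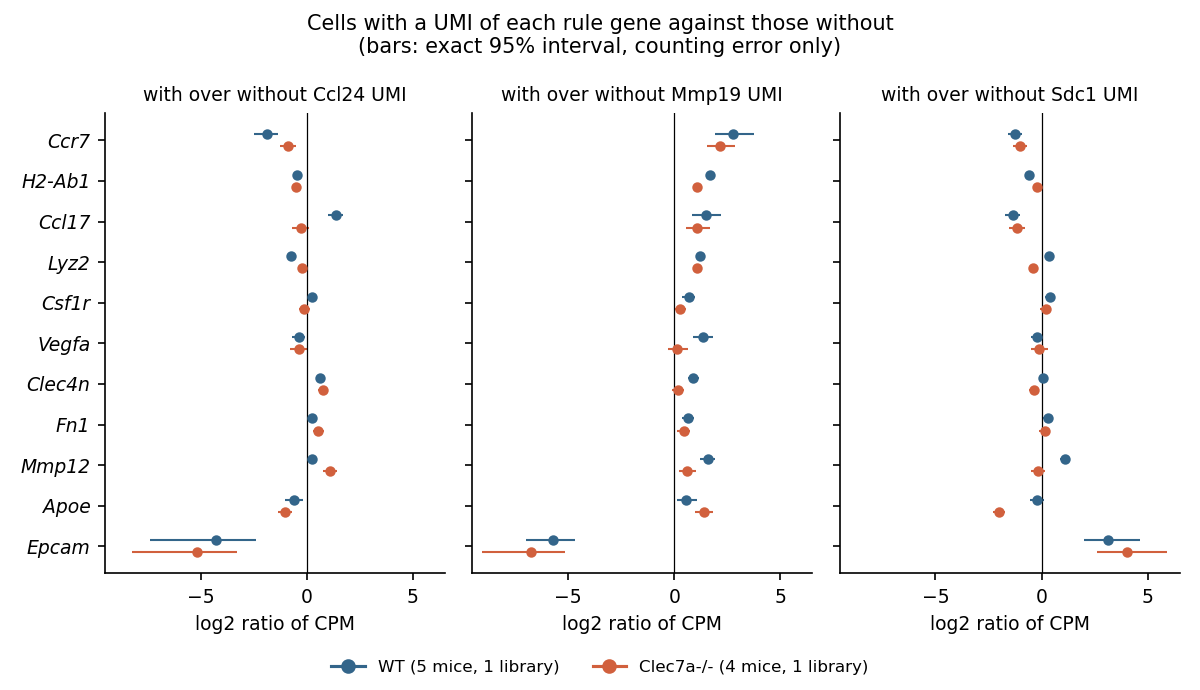
Points give the log2 ratio of CPM between selected cells with and without a UMI of Ccl24, Mmp19 or Sdc1 for selected genes, in the WT and the Clec7a-/- library, with exact 95% counting intervals. Ccr7 and H2-Ab1 were higher with Mmp19 and lower with Ccl24 and Sdc1, Clec4n was higher with Ccl24, and Epcam was higher with Sdc1, in both libraries.

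The last comparison set the *Clec7a*-/- cells against the WT cells, gene by gene, which is the question the 2 libraries were made for. Levels were similar for most genes. Of 2032 genes with at least 100 UMIs in the cells and outside the rule, 25 (1.23%) were past 2-fold, 16 lower (0.787%) and 9 higher (0.443%) in *Clec7a*-/-. The median log2 ratio was 0.028, and the 5th and 95th percentiles were −0.56 and 0.54. Ratios below 0 were thus common over all genes, and counts of them in short lists say little without the list median. The interval lay off 0 for 465 genes (22.9%). Of the 25 genes, 22 stayed past 2-fold without the barcode that held most of their UMIs in each library, and 21 had the same sign in all other kept barcodes. With TMM scaling 6 were higher and 23 lower, and with each cell weighted equally 19 were higher and 17 lower, so the split rests on how cells are scaled and weighted. Without cells that held at least 2 UMIs of another cell type's markers, 9 of 658 genes with enough UMIs were past 2-fold, which is 1.37%. This left 87 WT and 58 *Clec7a*-/- cells, and 2 of the 9 genes were among the 25.

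Inflammatory genes had ratios below 0 in the *Clec7a*-/- cells. Of 7 cytokine and inflammasome genes with enough UMIs, 7 had a ratio below 0 and 1 was past 2-fold, with a list median of −0.59 against 0.028 over all genes. *Tnf* stood at 186 CPM (WT) and 71.8 CPM (*Clec7a*-/-), with a log2 ratio of −1.36 (−1.97 to −0.82), and −1.46 in the other barcodes. *Tnf* had a UMI in 52 and 25 cells. *Il1b* was at 1566 and 969 CPM, a ratio of −0.69 (−0.85 to −0.53), and *Il1rn*, its natural antagonist, at 2566 and 1855 CPM. The inflammasome sensor gene *Nlrp3* was at 898 and 594 CPM. In the other barcodes *Il1b* had a ratio of −0.95, *Il1rn* −0.69 and *Nlrp3* −1.20, the same direction as in the cells. Without the limit on C1q transcripts, *Tnf* stood at 0.045.

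Chemokines split. Of 11 with enough UMIs, 1 was lower and 1 higher past 2-fold, and the list median was −0.50. *Cxcl1*, a neutrophil chemokine, was at 303 and 122 CPM, a ratio of −1.31 (−1.77 to −0.89), against −0.19 in the other barcodes. It had UMIs in 32 and 23 cells, and stood at 0.024 without the C1q limit. *Cxcl2* was at 5083 and 2732 CPM, −0.90 (−0.99 to −0.80), and *Cxcl3* at 1376 and 814 CPM, −0.76 (−0.93 to −0.58). *Ccl22*, a chemokine of mature DCs, was higher, at 99.3 and 207 CPM, 1.06 (0.60 to 1.52), with 1.61 in the other barcodes. It was among the mature DC markers, of which 3 of 3 had a ratio above 0, with *Ccr7* at 0.61 and *Ccl17* at 0.38. In cells with under 2 mature DC markers and under 2 epithelial markers, *Ccr7* was at 177 (WT) and 167 CPM (*Clec7a*-/-). In the same cells *Ccl17* was at 239 and 105 CPM, so its direction turned. Both genes are on the marker list used for this trimming, which by construction removed cells rich in them. *Ccl17* was left in 17 WT and 5 *Clec7a*-/- cells, so these values do not settle its direction. Without any limit on mitochondrial UMIs *Ccl22* stood at −0.12. *Ccl24* itself, which the rule used, was at 717 and 1226 CPM.

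*Vegfa* was lower in *Clec7a*-/- cells by −0.52 (−0.76 to −0.29), under 2-fold, with −1.01 in the other barcodes. All 4 angiogenesis genes with enough UMIs had a ratio below 0, with a median of −0.24. Genes of glycolysis and the hypoxia response were level, with 0 of 18 past 2-fold and a median of −0.061. *Inhba* was at 1108 and 496 CPM, −1.16 (−1.38 to −0.95), and −0.93 in the other barcodes. *Ptgs2* was at 525 and 274 CPM, −0.93 (−1.24 to −0.64), and −1.12 elsewhere. All 3 prostaglandin and leukotriene genes with enough UMIs were below 0, with a median of −0.11.

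Matrix protease genes went both ways. *Mmp13*, a collagenase, was at 168 and 19.6 CPM, a ratio of −3.03 (−4.26 to −2.13), with 122 WT and 9 *Clec7a*-/- UMIs in 23 and 5 cells. It was −0.62 in the other barcodes and 0.018 when cells with C1q transcripts were let in. *Mmp12* was at 1437 and 718 CPM, just short of 2-fold, with an interval of −1.18 to −0.82. *Mmp9*, a gelatinase, was higher, at 157 and 466 CPM, 1.56 (1.23 to 1.91), and lower in the other barcodes at −0.49. It had UMIs in 34 and 23 cells, and 47 of its 214 *Clec7a*-/- UMIs were in 1 cell. With no C1q limit it stood at 0.29.

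Heme and iron genes had ratios below 0, with none past 2-fold. *Hmox1*, the stress-induced heme oxygenase, was at 12776 and 7524 CPM, −0.76 (−0.82 to −0.71), and −1.24 in the other barcodes. All 4 genes of the list with enough UMIs were below 0, with a median of −0.34 against 0.028 over all genes. Among them were the ferritin genes *Fth1* at −0.19 and *Ftl1* at −0.47. Of 12 lipid-handling genes 9 were below 0 with a median of −0.40, and 1 was past 2-fold, the scavenger receptor gene *Cd36* at 186 and 74.0 CPM, −1.31 (−1.92 to −0.78), in 37 and 21 cells. The lysosomal lipase gene *Lipa* was at 445 and 263 CPM, −0.75 (−1.07 to −0.45).

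Other genes were higher in the *Clec7a*-/- cells. *Dpys*, an enzyme of pyrimidine breakdown, was at 49.6 and 222 CPM, a log2 ratio of 2.15 (1.60 to 2.75), with UMIs in 29 WT and 60 *Clec7a*-/- cells, and no cell held more than 5 of them. In the other barcodes it was 2.20. *Mgl2*, a lectin receptor of IL-4 responsive macrophages and DCs, was at 67.6 and 300 CPM, 2.14 (1.67 to 2.65), in 17 and 19 cells, against −0.02 in the other barcodes, and stood at 0.52 with no C1q limit, under 2-fold. *Dusp16*, a phosphatase that acts on stress kinases, was at 67.6 and 174 CPM, 1.36 (0.84 to 1.91), in 33 and 43 cells, against −0.02, and stood at 0.85 with the score of the 3 genes alone, under 2-fold. *Apoe* was higher by 1.10 (0.89 to 1.31), with 163 of 444 *Clec7a*-/- UMIs in 1 cell, and by 0.56 without the cell richest in it in each library. It stood at 0.035 in cells with at least 2 of the 3 genes and at 0.28 with a C1q score under 10. Without cells that held at least 2 UMIs of another cell type's markers, *Apoe* stood at 0.53. *Il21r*, the IL-21 receptor, was higher by 0.98. *Plet1* was higher by 1.31, and by 0.55 with each cell weighted equally. *Ss18* was higher by 1.09, and by 0.25 with no C1q limit, so neither was past 2-fold there. *Spock2* was higher by 1.04 in 7 and 6 cells, with 39 of 60 *Clec7a*-/- UMIs in 1 cell, and by 0.47, under 2-fold, without the richest cells. MHC class II genes were level, with 0 of 7 past 2-fold and a median of 0.10.

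The lowest ratios belonged to genes with UMIs in few cells. *Gm26917*, a predicted gene, had 869 UMIs in 22 WT cells, 307 of them in 1 cell, and 4 UMIs in *Clec7a*-/- cells, a ratio of −6.94, which was −1.70 with no mitochondrial limit. *Lars2*, the mitochondrial leucyl-tRNA synthetase gene, had 387 UMIs in 11 WT cells, 257 of them in 1 cell, and 3 in *Clec7a*-/- cells, −6.13. Both were lower in the other barcodes too, at −3.31 and −2.66. *Igkc*, the immunoglobulin kappa constant region, stood at −2.11, with 108 of 119 WT UMIs in 1 cell. Whether its reads are shared with related immunoglobulin genes was not tested. *Retnlg*, a neutrophil gene, was at 139 and 45.7 CPM, −1.58 (−2.36 to −0.92), and −2.73 in the other barcodes. Of 3 neutrophil genes with enough UMIs outside the rule, 2 were below 0, with *Lcn2* at −0.16. *Zfp703* stood at −1.31, and at −0.67 with no C1q limit. *Plk2* stood at −1.19, and at −0.11 with each cell weighted equally. Beside these, *S100a8* in the cells was at 334 and 172 CPM, and the epithelial gene *Epcam* at 148 and 253 CPM, and their part in the differences above was not tested.

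**Figure D5:**
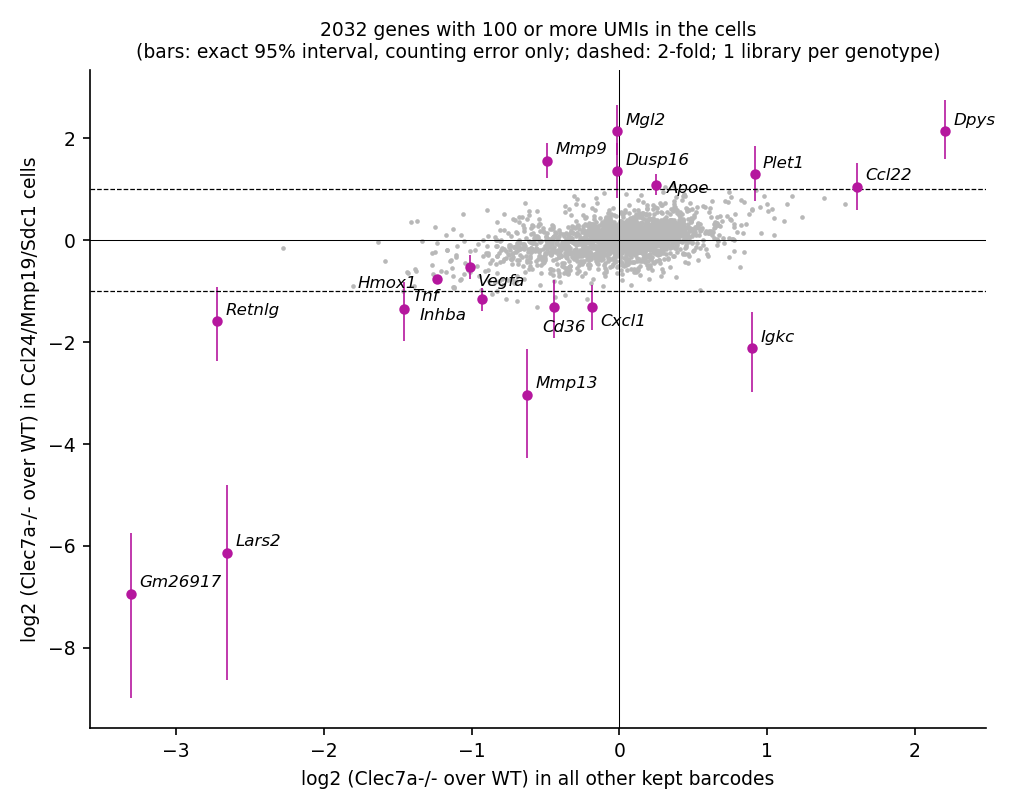
Each point is 1 of 2032 genes, with its log2 ratio of Clec7a-/- over WT in all other kept barcodes on the x axis and in the selected cells on the y axis, named genes with exact 95% counting intervals, and dashed lines at 2-fold. Most genes lie within 2-fold, Dpys was higher and Gm26917, Lars2 and Retnlg lower in both groups of barcodes, and Igkc and Mmp9 had opposite signs in them.

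Genes of the lineage itself were level between the libraries. Of 10 genes shared by monocytes and macrophages, 0 were past 2-fold, and 5 lay on each side of 0 with a median of −0.02. *Lyz2* was at 5333 and 5730 CPM and *Csf1r* at 1064 and 1295 CPM. *Cd14*, the endotoxin co-receptor, had the lowest ratio of the list, at 2632 and 1661 CPM, −0.66 (−0.79 to −0.54), and −1.06 in the other barcodes. *Fn1* was at 1246 and 1237 CPM in the cells, −0.01 (−0.17 to 0.14), whereas it stood at −0.81 in the other barcodes. *Spp1* was at 1193 and 812 CPM, −0.55 (−0.73 to −0.38).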

How the data were processed

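The deposited files hold UMI counts per gene and barcode, made by the authors and not normalized, for 1 pooled library per genotype. The submitters' processing notes name Cell Ranger 2.1.1 and the mm10 build. The study's methods name a microwell kit with UMIs (SeekOne MM), whereas a label names 10x Genomics. Which mouse a barcode came from is not in the labels.

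From these counts, barcodes were filtered and selected in Python 3.11.15 (numpy 2.4.6, scipy 1.17.1, pandas 2.3.3), and UMIs were summed over the cells of a library. Ratios were taken of CPM with 0.5 UMI added, for genes with at least 100 summed UMIs. TMM factors came from edgeR 4.0.16 in R 4.3.3 and figures from matplotlib 3.10.9. Gene positions are from GENCODE M21. The calculations were tested on simulated data. No doublets were removed. Scrublet in scanpy 1.11.5 marked 0% and 0.296% of barcodes, so it did not separate doublets, and removal of the barcodes with the top 5% of scores was an alternative. The other alternatives changed the mitochondrial limit (the study used 5%), the score, the limits on other genes, the depth, the scaling, the pseudocount and the UMI minimum, and some were chosen after seeing the data.

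The members and gene lists were chosen with earlier results of these data known. Named genes are those of the rule, *Vegfa*, up to 4 examples from each list and comparison, and the 10 with the largest ratio in each direction of a comparison. Genes named beyond that to account for a list's count were chosen after their values were seen. Some genes are not reported here.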

Additional observations from a re-analysis of the deposited data

Results flagged for a closer look

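For 4 of the 25 genes past 2-fold in the *Ccl24*/*Mmp19*/*Sdc1* cells, the ratio of *Clec7a*-/- over WT had the opposite sign in the other kept barcodes. For *Mgl2* and *Dusp16* it was −0.02 there, with an interval that reaches 0, and for *Igkc* and *Mmp9* the interval lay off 0. The difference itself was not tested, since each genotype was 1 library. *Igkc* had a log2 ratio of −2.11 in the cells and 0.90 in the other barcodes, and 0.66 in the cells without the barcode richest in it in each library. *Mmp9* had a log2 ratio of 1.56 in the cells and −0.49 in the other barcodes, and 1.55 in the cells without the richest barcodes. It was 0.29 with no C1q limit and 0.080 with the score of the 3 genes alone.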

How the results depend on the processing

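With 1 library per genotype, no alternative replaces a replicate, and levels of genes under 100 UMIs were too shallow to compare. No paired analysis was possible because each genotype was 1 pooled library. The log2 ratio of the shares kept its sign under 17 of 18 alternatives, between −0.58 and −0.079, and was 0.13 after thinning to 2000 UMIs. The count of genes past 2-fold between genotypes, 25, was within 1.5-fold of that under 17 of 24 alternatives. The number of genes with enough UMIs moved as well, so shares stand beside the counts, against 1.23%. It was 16 (1.13%) at a score of at least 10, 9 (1.37%) without cells holding 2 UMIs of another cell type, 44 (0.934%) with no C1q limit, 108 (1.77%) with the score of the 3 genes alone (chosen after seeing the data), 335 (5.76%) at a minimum of 20 UMIs, 3 (0.733%) at a minimum of 500 and 10 (1.86%) with the cells thinned to 1000 UMIs. Against monocytes the count was 92 at 5% mitochondrial UMIs, 509 at a minimum of 20 UMIs and 87 without barcodes holding 2 markers of another cell type (chosen after seeing the data). Against C1q macrophages it was 1185 at a minimum of 20 UMIs. The sign turned for *Ccl22* with no mitochondrial limit (−0.12), for *Igkc* in barcodes thinned to 1000 UMIs (3.71) and without its richest barcodes (0.66), for *Mmp13* with no C1q limit (0.018) and with the score alone (0.033), and for *Tnf* (0.045) and *Cxcl1* (0.024) with no C1q limit. The causes were not tested. *Vegfa* ranged from −0.73 to −0.36 over 24 alternatives, and *Dpys* from 2.02 to 2.45 over the 18 in which it had enough UMIs.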

Other observations

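Barcodes outside the filter also met the remaining conditions of the rule. There were 18 among the 320 WT barcodes that failed the filter and 8 among the 378 *Clec7a*-/- barcodes, and 17 and 8 of them had over 10% mitochondrial UMIs.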
